A study of Mus musculus with 6 samples.

Results

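The NRF2 antioxidant pathway was examined in lungs of mice that carry a knock-in of the RNA-binding protein RBM47. The set holds 10 genes of the 56262 in the table, chosen by name as the sensor, the ligase scaffold, the transcription factor and the classical targets of the pathway, with earlier results of these data known and with no threshold on a measured value. They are Nfe2l2 (the gene for NRF2), Keap1, Cul3, Nqo1, Hmox1, Gclc, Gclm, Txnrd1, Srxn1 and Slc7a11. RNA-seq was done on whole lung of 3 untreated mice per genotype, R/R and WT, at 8 weeks of age. R/R mice are homozygous for the K329R and K332R substitutions of RBM47, which were introduced by CRISPR/Cas on the C57BL/6 background, and WT mice were their littermates. The substitutions are in the germline, so every cell type of the R/R lung carried them. The sex of the mice is not given in the sources used here. All 10 genes had enough read pairs to be tested, among 17120 genes tested in all.

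NRF2 is a transcription factor that binds antioxidant response elements together with small MAF proteins and drives genes for glutathione synthesis, thioredoxin recycling, quinone reduction and heme breakdown. KEAP1 holds NRF2 in the cytoplasm and presents it to the CUL3 ubiquitin ligase, so that NRF2 is degraded until electrophiles or oxidants modify KEAP1. This control acts on the protein, and the mRNA level of Nfe2l2 does not measure NRF2 activity. In the lung the pathway is known for its response to inhaled oxidants and for its activation by KEAP1 mutations in lung cancer. RBM47 has been reported to restrain NRF2 signaling in lung cancer cells, and the comparison of R/R with WT lungs asks whether pathway mRNAs differ with the knock-in.

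The promoter windows of the members are shown because NRF2 acts through a short motif. RefSeq windows (GRCm38.p6) of 250 bases before to 50 bases after the transcription start were found for 8 of the 10 members, and none was given for Hmox1 and Gclc. The core of the antioxidant response element, TGACNNNGC on either strand, was present in 4 of the 10 windows of these 8 members, 1 each of Nfe2l2, Gclm, Txnrd1 and Srxn1. It was present in 12.4% of all 32851 windows, and in at least 1 window of 14.0% of 27025 genes. The stretches below are written 5′ to 3′ on the strand that reads TGACNNNGC, with the core in capitals.
Txnrd1, chr10:82859104-82859132, minus strand: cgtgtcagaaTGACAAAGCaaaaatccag
Srxn1, chr2:152105542-152105570, minus strand: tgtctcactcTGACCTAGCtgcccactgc
Gclm, chr3:122245413-122245441, minus strand: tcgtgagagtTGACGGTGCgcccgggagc
Nfe2l2, chr2:75704885-75704913, minus strand: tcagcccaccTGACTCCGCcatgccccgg
Counted along the gene with the first transcribed base as 1, the core began at -92 in Txnrd1, at 29 in Srxn1, at -134 in Gclm and at -240 in Nfe2l2. The Txnrd1 match lay in 1 of its 3 windows. A related motif of AP-1 and MAF-type factors, TGAGTCA on either strand, can overlap the core where the letters of both are present. It was found in 1 of the 10 windows, that of Srxn1, in the plus-strand stretches shown here with the motif in capitals, and in 5.2% of all windows.
Srxn1, chr2:152105412-152105438, plus strand: tcggagggccTGAGTCAccacgctgtg
Srxn1, chr2:152105469-152105495, plus strand: aaattcacccTGAGTCAgcggccgggc
These began at -102 and -45. The stretch at -45 reads on as TGAGTCAGC, which has a G where TGACNNNGC has its first C. The search for the core did not allow this letter. The windows of Keap1, Cul3, Nqo1 and Slc7a11 held neither motif, and the E-box of clock factors, CACGTG, was in 0 of the 10 windows and in 7.15% of all windows. A match is a description of the letters and not of a bound site. A motif farther than 250 bases before the start would not be seen, so a window without a match does not show that a gene lacks one. In 7 of the 10 windows, bases 16 to 45 after the start lay in a GENCODE transcript of the gene.

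Library totals, the read pairs assigned to genes, lay between 16501092 and 18141067. Correlations of log2 CPM (read pairs relative to the library total, scaled by TMM) were between 0.986 and 0.99 within a genotype and between 0.983 and 0.986 across genotypes, and the typical gene varied by 8.62% between lungs beyond counting error. Against the tissue label, the summed level of 10 alveolar type 2 markers was between 23424 and 31941 CPM, while 5 of 7 liver markers had too few counts to be tested. Rbm47 itself had a mean of 33.4 CPM (SD 0.712) in R/R against 31.2 CPM (SD 2.89) in WT lungs, which overlapped, and gene counts do not show the substituted codons.

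The members spanned a wide range of levels. Per kilobase of exon, Gclc, the catalytic subunit of the enzyme that limits glutathione synthesis, was the most abundant member, at 43.7 CPM per kilobase on average over the 6 lungs. Nfe2l2 followed at 37.4, Cul3 at 24.3, Hmox1 at 19.3, Keap1 at 14.3 and Txnrd1 at 13.9 CPM per kilobase. Gclm was at 8.22, Srxn1 at 7.93, Nqo1 at 3.24 and Slc7a11 at 0.118 CPM per kilobase. Over the 6 lungs the ranges of Gclc and Nfe2l2 overlapped (38.1 to 50.1 and 34.8 to 40.7 CPM per kilobase), as did those of Keap1 and Txnrd1 (13.5 to 15.1 and 12.7 to 15.5) and those of Gclm and Srxn1 (7.80 to 8.93 and 7.15 to 8.92). The other neighbours in this order did not overlap. Gclc was thus present at several times the level of Gclm, the modifier subunit of the same enzyme, per kilobase of all annotated exons, a length that includes exons not used in every transcript.

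**Figure D1:**
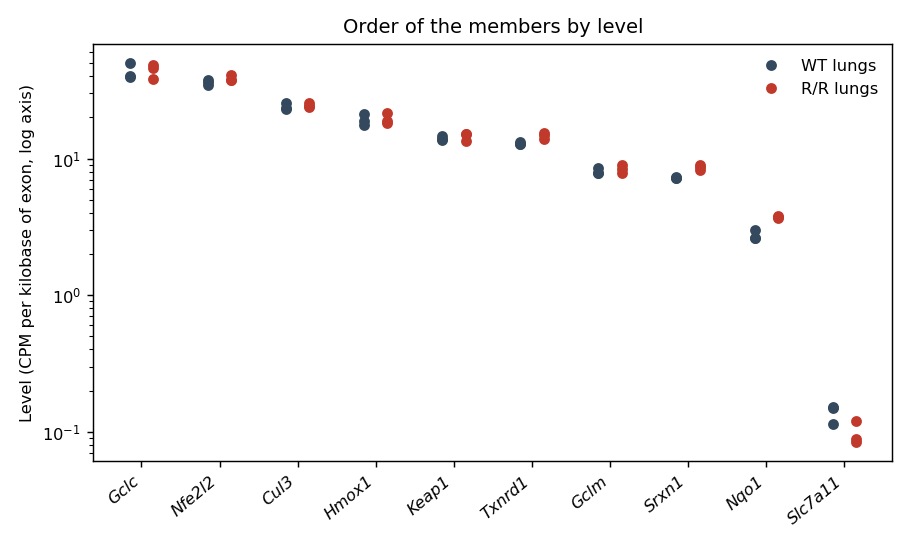
Level of each member in each lung, in CPM per kilobase of exon on a log axis, with members ordered by their mean over the 6 lungs. Gclc (mean 43.7) and Nfe2l2 (37.4) lead the order, and Slc7a11 (0.118) stands far below Nqo1 (3.24) in every lung.

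Nfe2l2 and its repressor genes Keap1 and Cul3 were at nearly the same level in both genotypes. Nfe2l2 (chromosome 2, 75675513 to 75704641, minus strand, GRCm38) reached 142, 154 and 142 CPM in R/R lungs, given here and below in the order of replicates 1, 2 and 3, and 143, 132 and 138 CPM in WT lungs. Keap1 (chromosome 9, 21229730 to 21239361, minus strand), the sensor, was at 70.8, 63.4 and 70.6 CPM in R/R and at 64.0, 65.2 and 68.7 CPM in WT lungs. Cul3 (chromosome 1, 80264923 to 80340480, minus strand), the scaffold of the ligase, was at 118, 124 and 117 CPM in R/R and at 124, 114 and 113 CPM in WT lungs. For each of the 3 genes the genotypes overlapped. The log2 fold change, R/R minus WT, was 0.09 for Nfe2l2 (SE 0.06, 95% interval -0.04 to 0.22), 0.05 for Keap1 (SE 0.07, -0.09 to 0.19) and 0.04 for Cul3 (SE 0.06, -0.10 to 0.17). As ratios, the intervals ran from 0.97 to 1.16 for Nfe2l2, from 0.937 to 1.14 for Keap1 and from 0.936 to 1.12 for Cul3. The adjusted p-values (edgeR quasi-likelihood, adjusted over all 17120 genes) were 0.575, 0.805 and 0.852. Keap1 shares 510 exon bases, 10.9% of its exons, with the antisense gene Gm16754, which had between 19 and 34 read pairs in a lung. Counting was done without strand, so the counts do not assign read pairs there to a strand. The paper's supplement describes the sequencing as stranded.

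Among the targets, Txnrd1, Srxn1 and Nqo1 were higher in each R/R lung than in any WT lung, but none of the 3 passed the threshold. Txnrd1 (chromosome 10, 82833951 to 82897712, plus strand) encodes the cytosolic thioredoxin reductase, which returns oxidized thioredoxin to its reduced form. It was at 99.0, 106 and 109.6 CPM in R/R and at 90.4, 89.9 and 94.0 CPM in WT lungs. The gap between the lowest R/R and the highest WT lung was small beside the level itself. Its log2 fold change was 0.20 (SE 0.06, 95% interval 0.07 to 0.33), with an unadjusted p of 0.00632 and an adjusted p of 0.14 by edgeR's quasi-likelihood test.

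Srxn1 (chromosome 2, 152105516 to 152111376, plus strand) encodes sulfiredoxin, which repairs overoxidized peroxiredoxins. It was at 25.1, 24.5 and 23.3 CPM in R/R and at 20.2, 20.8 and 20.3 CPM in WT lungs. The lungs of each genotype lay close together, with a coefficient of variation of 3.79% in R/R and 1.5% in WT lungs. Each lung had 332 to 453 read pairs. The typical gene varied by 8.62% beyond counting error, so 3 lungs may understate the spread of Srxn1. The log2 fold change was 0.25 (SE 0.08, 95% interval 0.08 to 0.43), with an adjusted p of 0.158 by the same test.

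Nqo1 (chromosome 8, 107388225 to 107403206, minus strand) encodes a quinone reductase that is widely used as a readout of NRF2. It was at 5.72, 5.86 and 5.77 CPM in R/R and at 4.68, 4.08 and 4.10 CPM in WT lungs, from 103, 98 and 98 read pairs in R/R and 77, 74 and 70 in WT lungs. Its ratio was the largest of the members at 1.35 (95% interval 1.06 to 1.72), a log2 fold change of 0.43 (SE 0.16), and its adjusted p was 0.239. For Txnrd1, Srxn1 and Nqo1 the exact two-sided permutation test of log2 CPM gave p = 0.1, the lowest it can give for 3 against 3 lungs.

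**Figure D2:**
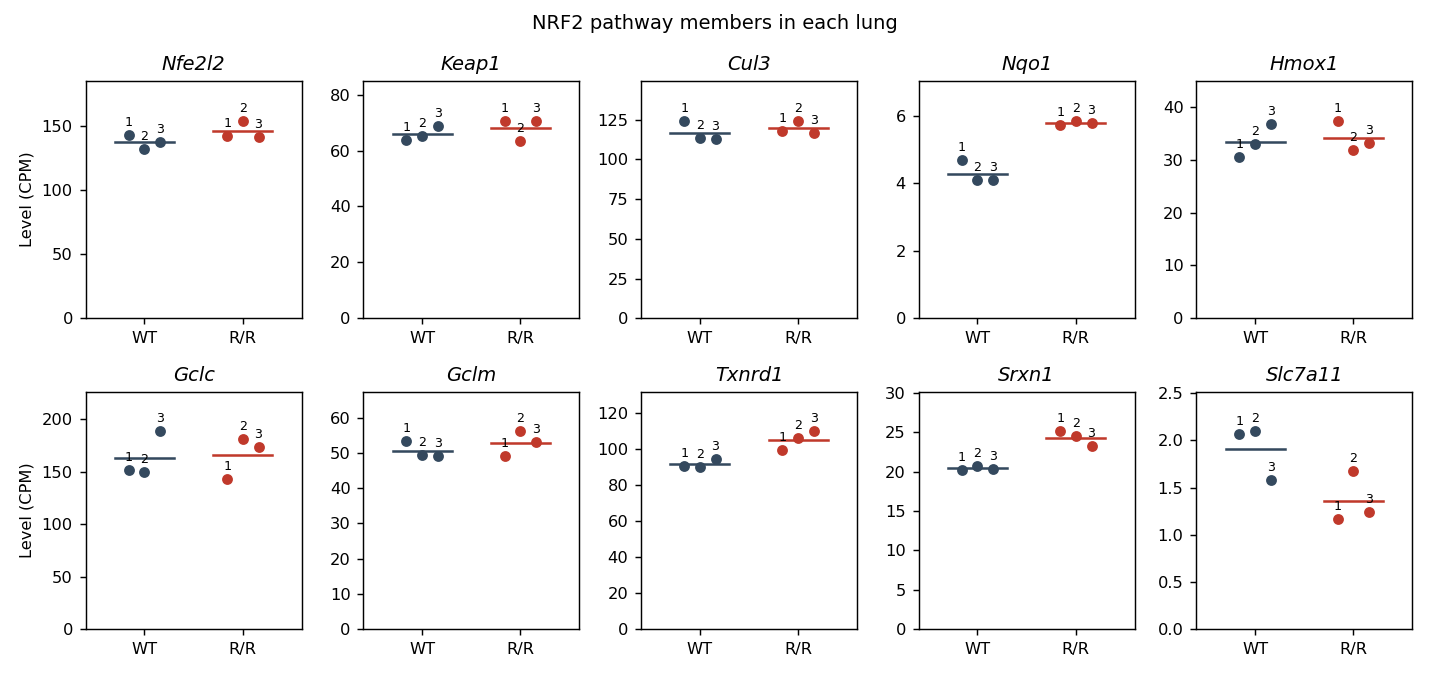
Level of each member (CPM, each axis from 0) in each WT lung (dark) and R/R lung (red), labelled by replicate number, with a line at the group mean. In the panels of Nqo1, Txnrd1 and Srxn1 the R/R lungs all lie above the WT lungs, while in the other 7 panels the groups overlap.

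Slc7a11 (chromosome 3, 49892526 to 50443614, minus strand) encodes the transport subunit of the cystine/glutamate exchanger that brings in cystine for glutathione, and is also a target of ATF4. It was the sole member with a lower mean in R/R lungs. It was at 1.17, 1.67 and 1.24 CPM in R/R and at 2.07, 2.1 and 1.58 CPM in WT lungs, from 21, 28 and 21 read pairs against 34, 38 and 27. R/R replicate 2 lay above WT replicate 3, so that the groups overlapped. With so few read pairs the log2 fold change of -0.50 had an interval from -1.12 to 0.13 (SE 0.28), and its adjusted p was 0.482.

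Hmox1, Gclc and Gclm overlapped between the genotypes. Hmox1 (chromosome 8, 75093621 to 75100589, plus strand), the inducible heme oxygenase and also a target of BACH1, was at 37.5, 31.8 and 33.2 CPM in R/R and at 30.6, 32.9 and 36.9 CPM in WT lungs. Gclm (chromosome 3, 122245557 to 122270732, plus strand) was at 49.1, 56.2 and 53.1 CPM in R/R and at 53.3, 49.4 and 49.2 CPM in WT lungs. Gclc (chromosome 9, 77754535 to 77794485, plus strand) was at 143, 181 and 174 CPM in R/R and at 151, 149.7 and 189 CPM in WT lungs. Each of the 3 had lungs of both genotypes at the top and at the bottom of its range. The log2 fold changes were 0.03 for Hmox1 (SE 0.09, 95% interval -0.17 to 0.23), 0.06 for Gclm (SE 0.07, -0.10 to 0.22) and 0.02 for Gclc (SE 0.10, -0.20 to 0.25). Their adjusted p-values were 0.933, 0.777 and 0.951. The sign of the Hmox1 and Gclc differences turned when single lungs were left out, within -0.046 to 0.10 for Hmox1 and -0.043 to 0.14 for Gclc. Gclm shares 296 exon bases (4.71%) with the antisense gene Gm17494, which had between 9 and 15 read pairs in a lung.

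Counted together, 0 of the 10 members were called at an adjusted p of 0.05 by edgeR's quasi-likelihood test, where 300 of all tested genes were called (1.75%). The 300 were made up of 111 genes that were higher in R/R lungs (0.648%) and 189 that were lower (1.10%). DESeq2, edgeR's exact test and limma-voom also called 0 members. At an unadjusted p under 0.05 stood 3 of the 10, against 14.2% of all tested genes. The same 3 were the members whose lungs did not overlap between the genotypes, against 18.7% of all tested genes, and all lay above WT, as did 9.17% of all tested genes. The mean was higher in R/R lungs for 9 members, and the median log2 fold change was 0.05, against 0.0045 over all tested genes. For Nfe2l2, Keap1, Cul3, Hmox1, Gclc and Gclm the interval of the ratio lay within 0.872 to 1.19.

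**Figure D3:**
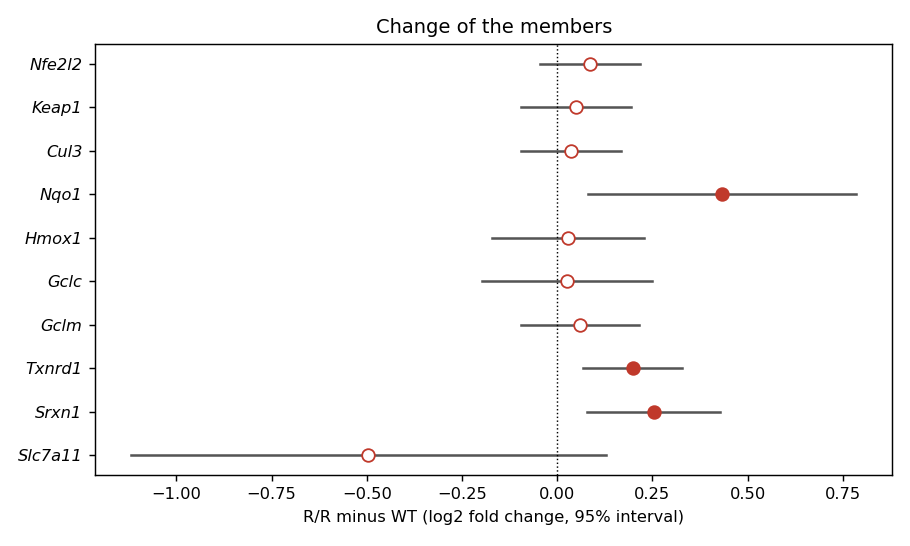
Log2 fold change, R/R minus WT, of each member (point) with its 95% interval (line). Filled points mark the 3 members whose lungs did not overlap, Nqo1 (0.43), Srxn1 (0.25) and Txnrd1 (0.20), and the intervals of the other 7 reach across 0.

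Gclc varied more between lungs of a genotype than the other abundant members. Its coefficient of variation was 12.1% in R/R and 13.5% in WT lungs, against 4.95% and 3.92% for Nfe2l2 and 6.78% and 4.61% for Gclm. The lungs with the highest Gclc were WT replicate 3, R/R replicate 2 and R/R replicate 3. The same 3 lungs had the highest summed levels of club cell markers, the secretory cells of the airway that carry much of its detoxification. In the order of replicates, those sums were 12183, 16122 and 15697 CPM in R/R and 10947, 10105 and 15046 CPM in WT lungs. The club cell markers did not all move together between genotypes. Of the 7 tested, 4 had a higher and 3 a lower mean in R/R lungs (log2 fold changes -2.34 to 0.31), and a sum weighs abundant markers most. Ciliated cell markers, of another airway cell type, summed to 114, 156 and 147 CPM in R/R and 113, 114 and 159 CPM in WT lungs, with the same 3 lungs on top. In R/R replicate 1 the lowest Gclc level stood beside a club cell sum above those of WT replicates 1 and 2. The other cell type lists had other lungs among their top 3, such as R/R replicate 1 for alveolar type 2 markers. The part of airway content in the Gclc levels was not tested. In whole lung, more cells of a type and more RNA per cell cannot be told apart.

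**Figure D4:**
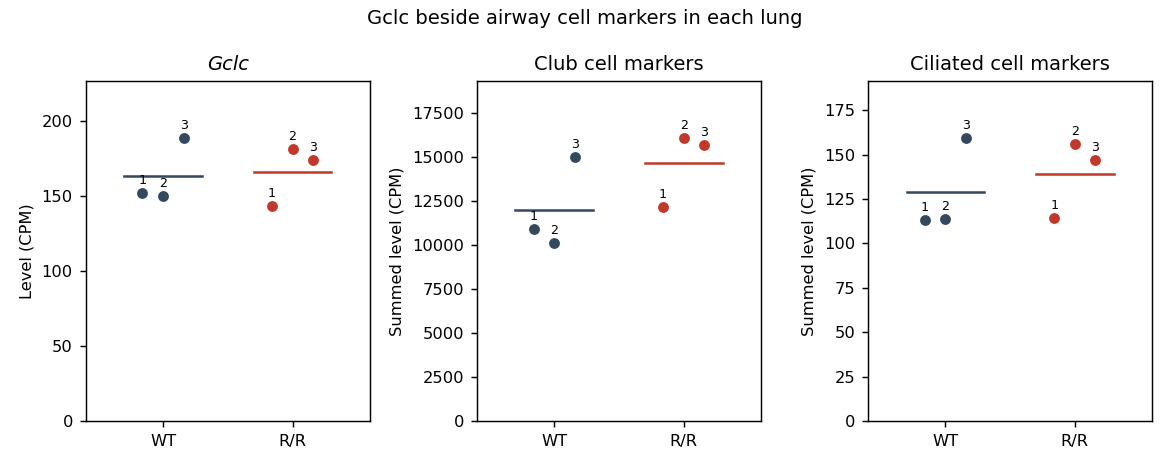
Level of Gclc (CPM) beside the summed levels of 7 club cell and 8 ciliated cell markers (CPM) in each lung, labelled by replicate number, with a line at the group mean and each axis from 0. WT replicate 3 and R/R replicates 2 and 3 are the highest 3 lungs in all 3 panels.

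The genes whose log2 CPM followed a member most closely over the 6 lungs were listed as a description, among 14378 other genes of sufficient level. Those most like Nfe2l2 were 2410004I01Rik (Pearson r = 0.989), Rrp7a (0.987), Rit1 (0.982), Lepr (0.98) and Gcnt1 (0.975). Those most like Txnrd1, the member with the lowest p, were Rab4a (0.997), Gng5 (0.994), Dda1 (0.992), mt-Nd2 (0.992) and Snx16 (0.984). These are the highest of many values over 6 lungs, which share library and depth within each point. None of these 10 genes was another member or on a pathway list.

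The wider pathway was read from 9 lists, chosen with earlier results of these data known. They held 181 further genes, of which 171 had enough counts. Of these, 7 were called (4.09%), against 1.75% of all tested genes, and the number was 2 without R/R replicate 2 or WT replicate 1, 3 without WT replicate 2, 4 without R/R replicate 3 and 19 without WT replicate 3. The calls over all tested genes moved with them, from 300 to 76 without R/R replicate 2, 65 without WT replicate 1, 110 without WT replicate 2, 117 without R/R replicate 3, 180 without R/R replicate 1 and 621 without WT replicate 3. Gsta3, Ces1g, Cyp1a1 and Aox1 rose in R/R lungs, and Bach2, Slc11a1 and Rac2 fell. Cyp1a1, Aox1 and Rac2 came from the lists of the aryl hydrocarbon receptor and of oxidant sources. In the lists of glutathione, thioredoxin, NADPH, heme and detoxification genes, 3 of 114 tested genes were called (2.63%). The mean was higher in R/R lungs for 121 of the 171 (70.8%), against 51.2% of all tested genes. The lungs did not overlap for 51 of the 171, 39 of them above and 12 below WT (22.8% above, against 9.17%). The median log2 fold change was 0.08.

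In the list of NRF2 control and partners, 10 of 18 genes had a higher mean in R/R lungs, with a median of 0.02. Bach2, a repressor that competes with NRF2 for MAF partners and is known mainly from B and T lymphocytes, was the sole call. It was at 26.6, 24.4 and 29.7 CPM in R/R and at 44.5, 46.1 and 42.2 CPM in WT lungs. It fell by 0.72 on the log2 scale (SE 0.08, adjusted p = 0.00248), with every R/R lung below every WT lung, and was called with any 1 lung left out. The 7 B cell markers were all lower in R/R lungs, 4 of them called (57.1%, against 1.75% of all tested genes). They summed to between 85.9 and 122 CPM in R/R and between 162 and 206 CPM in WT lungs. Their part in the Bach2 difference was not tested. Bach1, the more widely expressed relative that represses Hmox1, stood at a log2 fold change of -0.02 (SE 0.07, adjusted p = 0.938). Maff and Mafk, small MAF partners of NRF2, stood at 0.37 (SE 0.11, adjusted p = 0.129) and 0.19 (SE 0.08, adjusted p = 0.314).

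Glutathione synthesis and transfer held 34 tested genes, 27 of them with a higher mean in R/R lungs and a median of 0.13. The sole call was Gsta3, an alpha-class glutathione transferase. Its level was 101, 121 and 82.6 CPM in R/R and 60.3, 62.0 and 80.0 CPM in WT lungs, so that R/R replicate 3 and WT replicate 3 nearly met. It rose by 0.59 (SE 0.13, adjusted p = 0.0491), and was called in 2 of the 6 fits with 1 lung left out. The call was lost with limma-voom (adjusted p = 0.0571) and with a filter of 1 CPM in 3 lungs (adjusted p = 0.0544), and its adjusted p lay between 2.17e-13 and 0.0571 over the 9 settings of tool, scaling, filter and block. Gpx7, a peroxidase of the endoplasmic reticulum, stood at -0.39 (adjusted p = 0.0761) and Mgst3, a microsomal transferase, at 0.35 (adjusted p = 0.106). Gstp2 had the largest value of the list, 1.11 (SE 0.46, adjusted p = 0.301), at a mean of 1.05 CPM in R/R and 0.475 CPM in WT lungs. It was named after its value was seen. Its close relative Gstp1 makes its count uncertain, since read pairs that mapped to several places were not counted. Of the 34 genes, 22 had exons of at most 2305 bases in all, a class of 4280 tested genes whose median log2 fold change was 0.023, against -0.014 in the 4280 longest genes.

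Among the 9 pathway lists, detoxification and export had the largest share of genes with a higher mean in R/R lungs, 25 of 28 tested genes (89.3%, against 51.2% of all tested genes), with a median of 0.13. The R/R lungs all lay above WT for 10 of the 28 (35.7%, against 9.17% of all tested genes). Ces1g, a carboxylesterase, was the sole call. It was at 6.66, 7.29 and 6.71 CPM in R/R and at 4.62, 3.64 and 3.10 CPM in WT lungs. It rose by 0.86 (SE 0.18, adjusted p = 0.0405), and was called in 0 of the 6 fits with 1 lung left out, where its adjusted p was between 0.0559 and 0.151. Akr1b8, an aldo-keto reductase, stood at 0.42 (adjusted p = 0.154) and Pir, encoding pirin, at 0.40 (adjusted p = 0.168). The club cell sums given with Gclc overlapped between the genotypes. Of the 7 tested club cell markers, 0 were called, and their median log2 fold change was 0.19. At an unadjusted p under 0.05 stood 2 of them (28.6%, against 14.2% of all tested genes), 1 of these higher in R/R lungs. The part of club cell content in the detoxification values was not tested.

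In the list of thioredoxin, peroxiredoxin and oxidant removal, 15 of 23 genes had a higher mean in R/R lungs, with a median of 0.09 and 0 calls by edgeR's quasi-likelihood test, while 5 of the 23 had an unadjusted p under 0.05, against 14.2% of all tested genes. Prdx6, a peroxiredoxin abundant in lung epithelium, had a mean of 769.6 CPM (SD 61.3) in R/R against 607 CPM (SD 47.8) in WT lungs, a log2 fold change of 0.34 with an adjusted p of 0.0573. It passed the threshold under 5 of 9 other settings, DESeq2 and edgeR's exact test among them. With 1 lung left out it passed in 1 of 6 fits, with adjusted p-values between 0.0421 and 0.22. Sod1, the cytosolic superoxide dismutase, stood at 0.26 (adjusted p = 0.0761) and passed under 3 of the 9. It also passed in 1 of the 6 fits with 1 lung left out (adjusted p between 0.0236 and 0.279). Msra, a methionine sulfoxide reductase, stood at 0.22 (adjusted p = 0.439).

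NADPH supply, which provides the electrons for Nqo1, Txnrd1 and glutathione reductase, had 10 of 12 genes with a higher mean in R/R lungs, a median of 0.04 and 0 calls, with 2 of the 12 at an unadjusted p under 0.05 (16.7%, against 14.2% of all tested genes). Me1, Idh1 and G6pdx stood at 0.20, 0.20 and 0.19, with adjusted p-values of 0.359, 0.264 and 0.257. In heme and iron handling, 12 of 17 genes had a higher mean in R/R lungs, with a median of 0.09. Of the 17, 8 had an unadjusted p under 0.05 (47.1%, against 14.2% of all tested genes), 6 of them higher in R/R lungs. Slc11a1, a metal transporter of phagocyte endosomes, fell by 0.69 (SE 0.14, adjusted p = 0.0337), from a mean of 15.9 CPM (SD 1.39) in WT to 9.85 CPM (SD 1.65) in R/R lungs, and was called in 2 of 6 fits with 1 lung left out. The iron exporter Slc40a1 stood at -0.44 (adjusted p = 0.082), and Tfrc, the transferrin receptor, at 0.30 (adjusted p = 0.201). The ferritin genes Fth1 and Ftl1, named after their values were seen, stood at 0.29 (adjusted p = 0.104) and 0.24 (adjusted p = 0.0673). For both, every R/R lung lay above every WT lung.

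**Figure D5:**
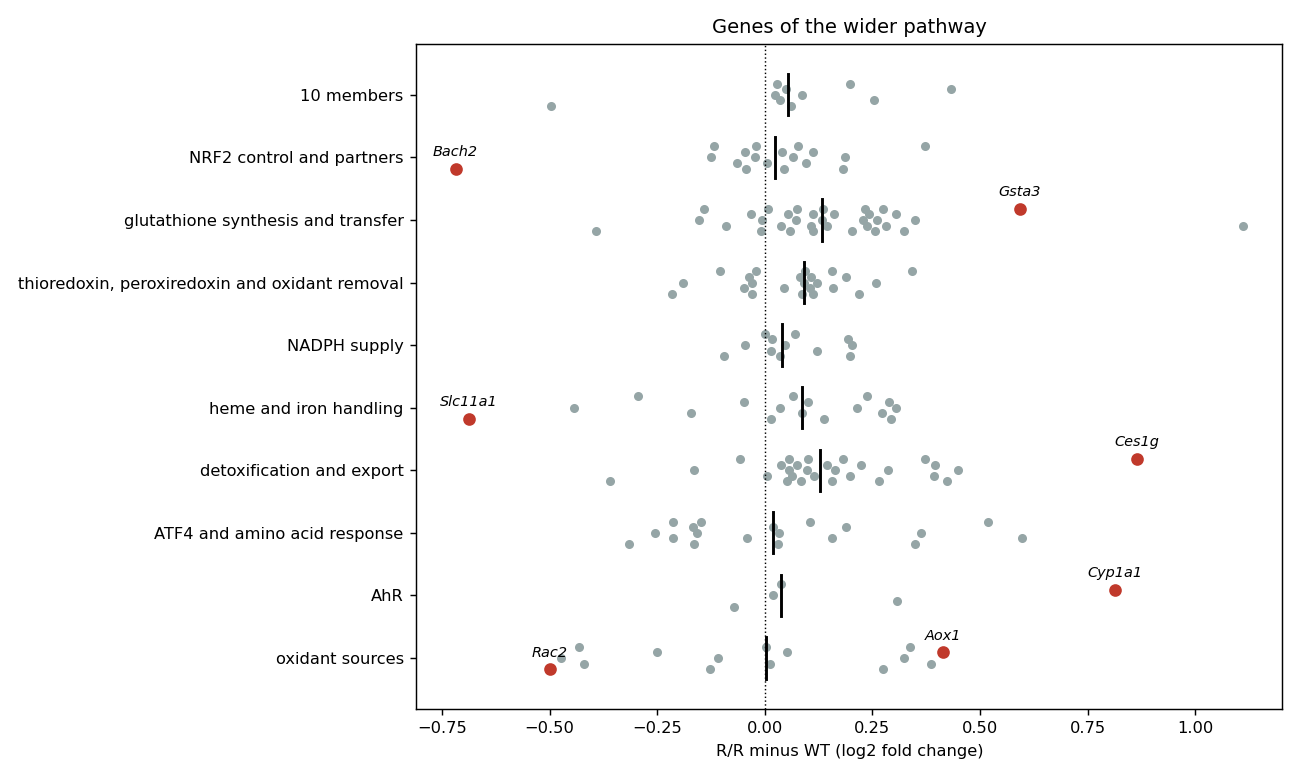
Log2 fold change, R/R minus WT, of every tested gene of the members and of the 9 pathway lists (points), with a vertical bar at each list's median. Red points with names are the 7 called genes, none of them a member. The bar lies farthest from 0 in glutathione synthesis and transfer and in detoxification and export (0.13 each).

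The ATF4 list, which shares Slc7a11 with the NRF2 pathway, had 10 of 19 genes with a higher mean in R/R lungs, a median of 0.02 and 0 calls, with 7 of the 19 at an unadjusted p under 0.05, against 14.2% of all tested genes. Chac1, a glutathione-degrading enzyme, stood at 0.60 (adjusted p = 0.2), Atf3 at 0.52 (adjusted p = 0.178) and the amino acid transporter Slc7a5 at 0.36 (adjusted p = 0.174). These are the 3 largest values of the list in either direction, and the other side of it held 9 genes with a lower mean, as Slc7a11 had. Slc1a4, an amino acid transporter named after its value was seen, stood at -0.32 (adjusted p = 0.0671), with every R/R lung below every WT lung. The aryl hydrocarbon receptor (AhR) also regulates Nqo1. Of 5 tested genes of its list, 4 had a higher mean in R/R lungs, and Cyp1a1, its most responsive target, was called. It was at 78.6, 84.2 and 78.3 CPM in R/R and at 45.1, 48.0 and 44.1 CPM in WT lungs, rose by 0.81 (SE 0.06, adjusted p = 0.000183), and was called with any 1 lung left out. Cyp1b1 stood at 0.31 (adjusted p = 0.366) and Ahr itself at -0.07 (adjusted p = 0.708). Among 15 tested genes for sources of oxidants, 8 had a higher mean in R/R lungs. Aox1, an aldehyde oxidase, rose by 0.41 (SE 0.09, adjusted p = 0.0434), from 46.8 to 62.4 CPM on average. Rac2, of the phagocyte NADPH oxidase, fell by 0.50 (SE 0.10, adjusted p = 0.0321), from 60.3 to 42.6 CPM. With limma-voom the call of Aox1 was lost (adjusted p = 0.0524, range over the same 9 settings 2.04e-05 to 0.0524). Aox1 was called in 2 and Rac2 in 3 of the 6 fits with 1 lung left out. Ncf4, another subunit of that oxidase, stood at -0.47 (adjusted p = 0.0672).

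Other cell type and state markers moved with genotype beside these values. Over all tested genes, 51.2% had a higher mean in R/R lungs, 1.75% were called and 14.2% had an unadjusted p under 0.05. Alveolar macrophage markers, from the phagocytes of the airspaces, summed to between 1109 and 1253 CPM in R/R and between 792 and 999 CPM in WT lungs, with a higher mean for 11 of 12 genes and 2 called. Alveolar type 2 markers summed to between 30385 and 31941 CPM in R/R and between 23424 and 29734 CPM in WT lungs, with a higher mean for 10 of 10 genes and 0 called, while 5 had an unadjusted p under 0.05. Both sums lay higher in every R/R lung than in any WT lung, by a narrow gap for alveolar type 2 markers. Taken singly, 7 of 12 alveolar macrophage markers and 2 of 10 alveolar type 2 markers had every R/R lung above every WT lung. Over all tested genes this share was 9.17%. Blood cell markers lay the other way. T cell markers had a lower mean in R/R lungs for 9 of 9 genes and neutrophil markers for 8 of 8. In these lists 0 were called, and 6 and 7 genes had an unadjusted p under 0.05. Every R/R lung lay below every WT lung for 8 of 9 T cell and 2 of 8 neutrophil markers. Over all tested genes this held for 1627 of 17120. T cell sums lay between 48.5 and 56.3 CPM in R/R and between 64.0 and 91.0 CPM in WT lungs. Erythroid and blood markers had a lower mean for 8 of 8 tested genes, with 1 called and sums between 1219 and 2281 CPM in R/R and between 2480 and 3297 CPM in WT lungs, beside the values of heme and iron handling. Cardiac muscle markers had a lower mean for 7 of 7 tested genes (median -1.17) and fibroblast and smooth muscle markers for 9 of 11 (median -0.20), with 0 called in either list and 4 and 3 genes at an unadjusted p under 0.05. Neutrophil sums overlapped, between 77.9 and 112 CPM in R/R and between 81.6 and 226 CPM in WT lungs. Monocyte and interstitial macrophage markers had a higher mean in R/R lungs for 5 of 12 genes and a lower mean for 7, with 1 called each way. Their sums overlapped, between 448 and 468 CPM in R/R and between 431 and 464 CPM in WT lungs. Slc11a1 and Rac2 are known from blood cells of these lists. The part of cell content in the pathway values was not tested.

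Of 16 circadian clock genes, 8 were called (50%, against 1.75% of all tested genes), a larger share than in any of the 9 pathway lists. Dbp, a clock output gene, was at 119, 135 and 132 CPM in R/R and at 66.8, 84.7 and 65.5 CPM in WT lungs. Npas2, of the opposite phase, was at 2.50, 2.81 and 2.59 CPM in R/R and at 5.53, 6.57 and 7.61 CPM in WT lungs. NRF2 signaling in mouse lung is known to be under clock control. Immediate early genes respond to handling and injury within minutes and include AP-1 subunits. They had a higher mean in R/R lungs for 15 of 15 tested genes, against 51.2% of all tested genes, with 1 called. Of the 15, 13 had an unadjusted p under 0.05 (86.7%, against 14.2% of all tested genes). For 10 of the 15, every R/R lung lay above every WT lung (66.7%, against 9.17%). Their sums lay between 1589 and 1686 CPM in R/R and between 1169 and 1364 CPM in WT lungs. The time of day at collection is not given in the sources used here. Clock phase, collection and genotype cannot be told apart, and the part of the first 2 in the member values was not tested.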

How the data were processed

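The authors aligned paired-end reads of whole-lung RNA to GRCm38 (mm10) with HISAT2 2.1.0. They counted read pairs on GENCODE M25 genes with featureCounts 2.0.1 (file header), without strand, and deposited these counts unnormalized. The supplement names an older featureCounts, and sources differ on the RNA extraction kit. Symbols came from GENCODE M21 (55141 of 56262 identifiers). Read pairs mapping to several places were not counted. Column 12 of the deposited table is recorded as another unit because of its comment line, and holds counts.

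In R 4.3.3 with edgeR 4.0.16, genes passing filterByExpr (minimum count 10) were scaled by TMM and tested with glmQLFTest. Calls were made at 0.05 after Benjamini-Hochberg adjustment over all 17120 genes. Standard errors and 95% intervals came from the same fit. Single members were also compared by exact permutation (prior count 0.5). Intervals reflect these 3 lungs per genotype. Alternatives used edgeR's exact test, DESeq2 1.42.0, limma-voom 3.58.1, other scalings, filters, thresholds, a replicate block and each lung left out. The fit was tested on simulated data.

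The members and lists were chosen with earlier results of these data known. The named genes were all members, and per list the called genes and, where fewer than 3 were called, those of largest change at a mean log2 CPM of at least 1, up to 3. A few others (Bach1, Gstp2, Fth1, Ftl1 and markers) stand beside a member or were added after their values were seen. Promoter motifs were read from RefSeq windows.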

Additional observations from a re-analysis of the deposited data

How the results depend on the processing

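The number of members called was 0 under each alternative run, except for 3 at an unadjusted p of 0.05. Of 150 member values under alternatives, 144 kept their direction and side of the threshold. The 6 that reversed were log2 fold changes of Hmox1 (without R/R replicate 1 or WT replicate 1, range -0.046 to 0.10) and of Gclc (without any 1 of R/R replicates 2 and 3 and WT replicates 1 and 2, range -0.043 to 0.14). The wider pathway genes called, 7 in the report, numbered 17 with DESeq2, 20 with edgeR's exact test, 34 with no filter, 11 with the replicate block, 5 with limma-voom (without Gsta3 and Aox1), 6 with a filter of 1 CPM in 3 lungs (without Gsta3), 2 at an adjusted p of 0.01, 17 at 0.1 and 50 at an unadjusted p of 0.05. They ranged from 2 (without R/R replicate 2 or WT replicate 1) to 19 (without WT replicate 3) with 1 lung left out, and were 3 without WT replicate 2 and 4 without R/R replicate 3. The calls over all genes, 300 in the report, numbered 529 with DESeq2, 630 with the exact test, 1109 with no filter, 40 at an adjusted p of 0.01, 548 at 0.1 and 2433 at an unadjusted p of 0.05, and ranged from 65 (without WT replicate 1) to 621 (without WT replicate 3) with 1 lung left out, with 76 to 180 without any 1 of the other 4 lungs. The cause was not tested. Replicate numbers did not pair the lungs (correlations of deviations -0.014, -0.0036 and -0.015), and the replicate block called 446 genes in all and 0 members. Depth limits Slc7a11 most, at 21 to 38 read pairs per lung.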
